A study of Oncorhynchus mykiss with 6 samples.

Results

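The entries described are the mature miRNAs of skeletal and heart muscle, miR-1, miR-133, miR-206 and miR-499, in dorsal skin of rainbow trout (Oncorhynchus mykiss). They were chosen by name: an entry belongs if its name, without the arm suffix x, y or z, is exactly miR-1, miR-133, miR-206, miR-208 or miR-499. This gave 11 of the 1939 entries, 3 each for miR-1, miR-133 and miR-206, 2 for miR-499 and 0 for miR-208, which was not analysed here. Small RNA was sequenced from black-skinned fish of the wild-type genotype (WR) and from yellow-skinned fish of the yellow mutant genotype (YR), 3 libraries each, all sampled at 45 days of age. No agent or further allele is named for either group. The labels do not say whether a library holds 1 fish or a pool, nor whether muscle was removed from the skin, so a p-value here reflects the spread among libraries, part or all of which may be technical.

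miR-1, miR-133 and miR-206 are the classical muscle miRNAs of vertebrates. Their genes lie in pairs, miR-1 with miR-133 and miR-206 with miR-133, and in mammals each pair is transcribed as 1 unit under myogenic factors such as MyoD, MEF2 and SRF. miR-1 and miR-206 promote the differentiation of muscle precursors, miR-133 is known for keeping them dividing, and miR-206 is largely restricted to skeletal muscle in mammals. miR-208 and miR-499 lie in introns of myosin heavy chain genes and are known from heart and slow muscle. They are read here as a measure of the muscle taken with the skin, an origin that was not tested. In bulk tissue fewer muscle cells and less RNA per cell cannot be told apart.

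The sequences below, as the deposited table gives them, show how the entries of a family differ, with the seed (bases 2 to 8 from the 5′ end) in capitals.
miR-206-y: tGGAATGTaaggaagtgtgtgg
miR-206-z: tGGAATGTaaggaagtgtgtga
miR-1-z: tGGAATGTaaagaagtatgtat
miR-1-y: tGGAATGTaaagaagtatgtatt
miR-133-z: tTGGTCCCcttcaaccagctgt
miR-133-y: tTTGGTCCccttcaaccagctat
miR-133-x: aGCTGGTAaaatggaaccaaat
miR-499-x: tTAAGACTtgcagtgatgttt

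In let-7 and miR-92 of this table x stands for the 5p arm and y for the 3p arm of the hairpin, while z has no stated arm. Here the z entries were near copies of the y entries. miR-1-z was identical to miR-1-y over all 22 of its bases, and miR-1-y had 1 base more at its end. miR-206-z differed from miR-206-y by G22A, counted from the 5′ end of miR-206-y. miR-133-z started 1 base later than miR-133-y and differed from it by A22G, counted from the 5′ end of miR-133-y. In mammals the last bases of this arm tell miR-133a, the neighbour of miR-1, from miR-133b, the neighbour of miR-206. The later start also moved the seed of miR-133-z to TGGTCCC, against TTGGTCC in miR-133-y. miR-206-y and miR-1-z shared the seed GGAATGT and 18 of 22 bases. The 4 entries with that seed held 884586 counts over the 6 libraries, and the only other entry of the table with it, a predicted one, held 7.

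Skeletal muscle miRNAs were abundant in both skins. miR-206-y, the skeletal muscle miRNA, ranked 19 of all 1939 entries by mean level. Its deposited TPM, the authors' count per library constant, was 11802, 11982 and 8713 in WR replicates 1 to 3 and 12514, 12963 and 6968 in YR replicates 1 to 3. The groups overlapped, with YR holding both the highest and the lowest library. Its means were 10832 ± 1837 TPM for black and 10815 ± 3339 TPM for yellow skin (SD, n = 3 each), and it held 51.7% of the counts of the 11 entries.

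miR-1-z, of the family that in mammals represses the histone deacetylase HDAC4, came next. Its WR libraries had 4654, 5733 and 4841 TPM and its YR libraries 6521, 5126 and 3338. miR-133-z followed, with 3554, 2897 and 2553 TPM in black skin and 3995, 3600 and 1915 in yellow. In both entries YR replicate 3 was lowest and YR replicate 1 highest, and the groups overlapped. miR-499-x, the 5p arm that works as the mature miRNA of this family, had 790, 693 and 618 TPM in black skin and 903, 1035 and 553 in yellow. miR-1-y had nearly the same mean, from 518, 998 and 836 TPM in black skin and 971, 728 and 543 in yellow. It was lowest in WR replicate 1.

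The order of levels was miR-206-y, miR-1-z, miR-133-z, then miR-1-y and miR-499-x, then miR-133-x, miR-206-z, miR-499-y, miR-133-y, miR-206-x and miR-1-x. Mature miRNAs are counted as whole molecules of 21 to 23 bases here, so levels need no correction for length. How evenly different sequences were captured in the libraries was not tested, so the order is one of counts. Most neighbours in this order kept it in 6 of 6 libraries. miR-1-y was above miR-499-x in 3 of 6 and miR-499-y above miR-133-y in 3 of 6, so neither pair differed beyond its spread, and miR-206-z was above miR-499-y in 5 of 6. The rarest entries were the 5p arms miR-206-x, with 45 to 95 counts a library, and miR-1-x, with 17 to 57.

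**Figure D1:**
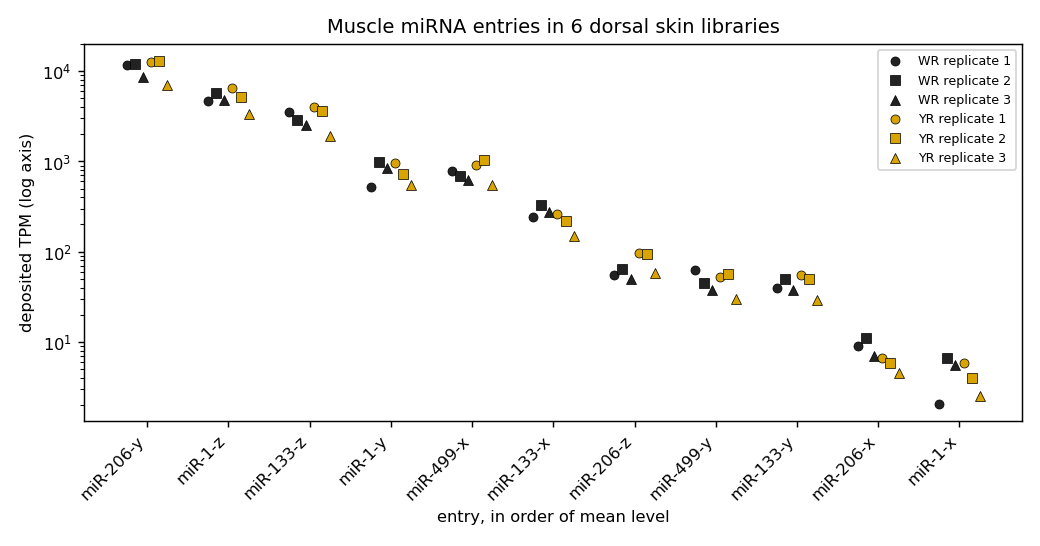
Deposited TPM (log axis) of the 11 muscle entries in order of mean level, 1 point per library, WR black and YR yellow, with shapes for replicates. miR-206-y lies between 6968 and 12963 TPM, and YR replicate 3 is the lowest of 6 libraries in 8 of 11 entries.

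As a measure of muscle in each piece of skin, the 11 entries together held 2.06%, 2.17% and 1.73% of all counts in WR replicates 1 to 3 and 2.41%, 2.28% and 1.31% in YR replicates 1 to 3. The group means were nearly equal, 1.99% ± 0.234 for WR and 2.0% ± 0.604 for YR (SD, n = 3 each), and the largest difference lay inside YR, where replicate 1 had 1.85 times the share of replicate 3. The proportions of the families varied less than the total. miR-206 made up 48.8% to 54.7% of the muscle counts, miR-1 23.8% to 31.6%, miR-133 14.4% to 17.6% and miR-499 3.24% to 4.57%. After TMM scaling, which sets a common level from the bulk of the entries, the summed share was 1.83% ± 0.156 in WR and 2.14% ± 0.511 in YR, and the groups still overlapped.

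**Figure D2:**
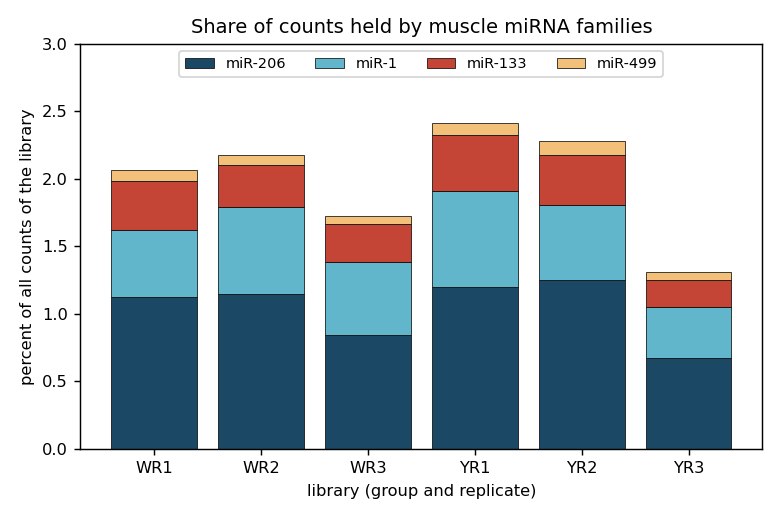
Percent of all counts of each library held by the 4 muscle families, stacked. The bars run from 1.31% in YR replicate 3 to 2.41% in YR replicate 1, and miR-206 is the largest family in each of the 6 libraries.

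In deposited TPM YR replicate 3 was the low library. It was the lowest of 6 in deposited TPM for 8 of 11 muscle entries, against 26.3% of all 834 tested entries. In TMM-scaled CPM, the count per TMM-adjusted library total, it was lowest for 5 of 11, against 11.5%. WR replicate 1 was also lowest for 5 of 11 in TMM-scaled CPM, and its share over all tested entries was not taken. YR replicate 3 had the highest share of the mesenchymal miR-199 and miR-214, 36.9% of its counts against 28.9% to 32.7% in the other 5. By edgeR 1 of the 6 mesenchymal entries was called higher in YR, against 2.16% of all tested entries. It was miR-199-y (log2 fold change 0.73, SE 0.13, edgeR adjusted p = 0.0341). With known entries alone or with a replicate block 0 entries were called higher in YR, so this call was lost. The same held without WR replicate 2 or 3 and without YR replicate 1 or 3. The epidermal list (miR-200, miR-141, miR-429, miR-203, miR-205 and miR-184) held 10.8%, 10.6% and 10.6% of the counts in WR replicates 1 to 3 and 9.48%, 8.84% and 7.93% in YR replicates 1 to 3. On library totals its share was thus lower in each YR library than in any WR library, and lowest in YR replicate 3. TMM multiplies a library total by a factor, 1.19, 1.08 and 0.988 in WR replicates 1 to 3. In YR replicates 1 to 3 the factor was 1.02, 0.913 and 0.841. The lack of overlap may thus depend on the scaling, and the epidermal share after TMM scaling was not taken. Among single tested entries, 28.3% had groups without overlap in deposited TPM, and no such rate was taken for summed lists. By edgeR 0 of the 16 tested epidermal entries passed, against 5.28% of all tested entries, with 12 negative and 4 positive log2 fold changes. Of the 6 mesenchymal and 17 epidermal entries 0 were at 0 in any library. On library totals, low shares in YR replicate 3 were not particular to muscle and epidermis. That library was also lowest for the pigment cell, red blood cell, endothelial and liver lists. They held 6.27%, 0.0218%, 0.679% and 0.000513% of its counts, against highest shares of 8.29%, 0.0448%, 0.971% and 0.00492%. The TMM factor of YR replicate 3 was the lowest of the 6, and the shares of these lists after TMM scaling were not taken. The summed muscle share was still lowest in YR replicate 3 after TMM scaling, at 1.55%, against 1.73% in WR replicate 1. Whether the low shares of the other lists depend on the scaling was thus not tested. The liver list, which is miR-122-x alone, was low in each YR library, at 0.00123%, 0.000885% and 0.000513%, against 0.00369% to 0.00492% in WR. miR-122-x was called lower in YR (log2 fold change -2.05, SE 0.30, edgeR adjusted p = 0.0201), as were 3.12% of all tested entries. With known entries alone 0 entries were called, so this call was lost. The smooth muscle and fibroblast, white blood cell and nerve lists were lowest in WR replicate 3. The nerve list held more in each YR library (0.0248%, 0.0142% and 0.0132%) than in any WR library (0.0105%, 0.0108% and 0.0104%). Its 5 tested entries had positive log2 fold changes, and 0 passed by edgeR, against 5.28% of all tested entries. Of its 8 entries 2 were at 0 in some library. The part of these shares in the muscle level and in the comparison of YR with WR was not tested.

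The comparison of yellow with black skin asked whether single muscle miRNAs differed. By edgeR's quasi-likelihood test over 834 entries, with TMM scaling and Benjamini-Hochberg adjustment at 0.05, 0 of 11 muscle entries passed, while 5.28% of all tested entries did. By DESeq2 0 of 11 passed, against 8.99% of all tested entries, and by limma on log2(TPM + 1) 0 of 11, against 4.92%. At an unadjusted p under 0.05 there was 1 by edgeR, miR-206-z, against 21.7% of all entries. The median log2 fold change of the 11 was 0.18, with 8 positive and 3 negative, and that of all entries was -0.03. With library totals alone 0 of 11 passed, against 3.60% of all entries, the medians were -0.02 and -0.26, and 4 of 11 were positive, so the direction of the list depended on the scaling. Without YR replicate 3 the median of the 11 was 0.37, and without WR replicate 1 it was 0.03.

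The most abundant entries had small fold changes with errors of similar size. After TMM scaling the log2 fold change of YR over WR was 0.22 (SE 0.21) for miR-206-y, 0.18 (SE 0.21) for miR-1-z and 0.30 (SE 0.22) for miR-133-z (edgeR adjusted p = 0.517, 0.587 and 0.425). For miR-206-y and miR-1-z the sign turned with library totals alone, to -0.000775 and -0.02. Single libraries moved these values. Without YR replicate 3 they were 0.41, 0.35 and 0.52 in the same order, without YR replicate 2 they were 0.05, 0.14 and 0.17, and without WR replicate 1 they were 0.08, -0.08 and 0.22. miR-499-x had a larger value, 0.48 (SE 0.20; edgeR adjusted p = 0.232). Its TMM-scaled CPM were 629, 610 and 600 for the WR and 842, 1083 and 632 for the YR libraries. The groups did not overlap, which was also true of 28.8% of all tested entries. YR replicate 3 exceeded WR replicate 1 by little, and in deposited TPM the groups overlapped.

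Set against miR-206-y within a library, miR-499-x was higher in each YR library than in any WR library. Its counts were 6.70%, 5.78% and 7.09% of those of miR-206-y in WR and 7.22%, 7.99% and 7.93% in YR. The groups did not overlap, as for 14.6% of the other 833 entries set against miR-206-y. On the log2 scale this ratio was -3.94 ± 0.15 for WR and -3.70 ± 0.08 for YR (SD, n = 3 each). The ratios of miR-1-z, miR-133-z and miR-1-y to miR-206-y overlapped between the groups, at -1.08 ± 0.25 against -1.11 ± 0.20, -1.85 ± 0.17 against -1.79 ± 0.12 and -3.82 ± 0.60 against -3.84 ± 0.27 (log2, WR against YR).

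miR-206-z, the form that ends in A, came nearest to the threshold. It had 458, 554 and 443 counts in the black and 942, 742 and 575 in the yellow libraries. In deposited TPM the groups overlapped, at 55.7, 63.5 and 50.1 for black and 96.8, 94.2 and 57.8 for yellow skin. After TMM scaling they did not, which was also true of 28.8% of all tested entries. The fold change was then 1.71 (log2 0.77, SE 0.21; edgeR adjusted p = 0.0919, with adjusted p of 0.06 to 0.336 over the alternatives). As a share of both miR-206 3p entries it was 0.470%, 0.527% and 0.572% in WR and 0.767%, 0.721% and 0.823% in YR, which does not depend on library scaling. The groups did not overlap, YR replicate 3 included. Of 24 families with a y and a z entry of the same arm, 20.8% had shares without overlap. miR-206-z is 1 base different from an entry with 120.5 to 212 times its counts, and how the counting assigned such reads is not stated.

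**Figure D3:**
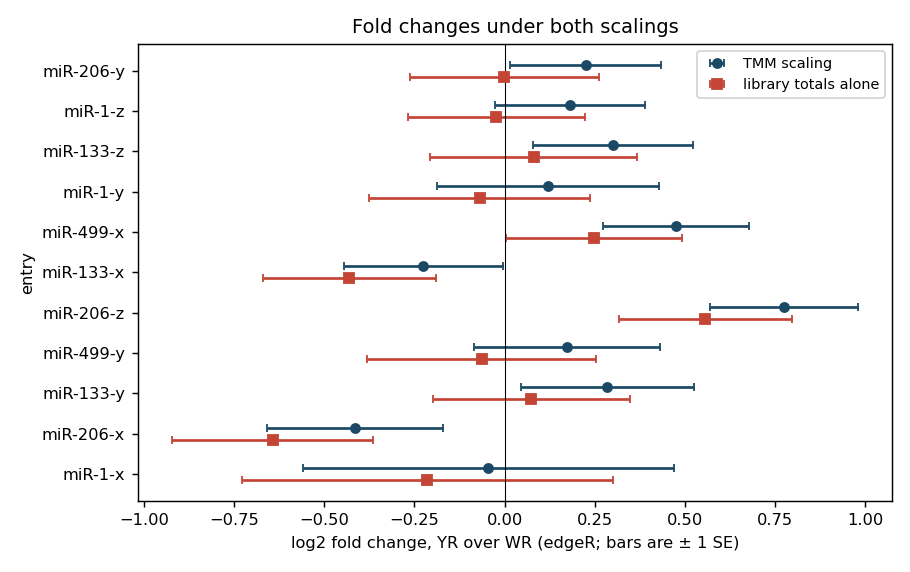
Log2 fold changes of YR over WR by edgeR, with bars of 1 SE, for the 11 muscle entries with TMM scaling (circles) and with library totals alone (squares). miR-206-z is highest, at 0.77 with TMM scaling, and 0 of 11 passed under either scaling, against 5.28% of all tested entries with TMM scaling and 3.60% with library totals alone.

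The 5p arms of miR-206, miR-133 and miR-1 had negative log2 fold changes. miR-206-x, the 5p arm of miR-206, had 8.88, 10.9 and 6.90 TPM in black and 6.68, 5.84 and 4.53 TPM in yellow skin, the only muscle entry whose groups did not overlap in deposited TPM (28.3% of all tested entries did not). Its log2 fold change was -0.42 (SE 0.24; edgeR adjusted p = 0.344). miR-133-x had 241, 332 and 277 TPM in black and 263, 217 and 150 TPM in yellow skin, with overlap, and a log2 fold change of -0.23 (SE 0.22; edgeR adjusted p = 0.528). miR-1-x, at 2.07, 6.54 and 5.54 TPM in black and 5.75, 3.94 and 2.52 TPM in yellow skin, had -0.05 (SE 0.52; edgeR adjusted p = 0.957), and its sign turned without single libraries. In the remaining entries the log2 fold changes were 0.28 for miR-133-y, 0.17 for miR-499-y and 0.12 for miR-1-y, with edgeR adjusted p from 0.483 to 0.82.

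Arm ratios were tested with limma on log2((x TPM + 1)/(y TPM + 1)) over 112 pairs, of which 1.79% passed, and 0 of the 4 muscle pairs did. At an unadjusted p under 0.05 there were 2, miR-133 and miR-206, against 16.1% of all pairs. For miR-206 the log2 ratio was -10.10 ± 0.12 for WR and -10.62 ± 0.30 for YR (difference -0.52, SE 0.20; limma adjusted p = 0.248), so the 3p arm exceeded the 5p arm by far in both skins. With a pseudocount of 10 TPM in place of 1 the difference was -0.22 (SE 0.23; limma adjusted p = 0.716). For miR-133 it was 2.72 ± 0.13 and 2.23 ± 0.10 (difference -0.49, SE 0.15; limma adjusted p = 0.218), and for miR-499, where the 5p arm is the major one, 3.85 ± 0.19 and 4.14 ± 0.05 (difference 0.29, SE 0.16; limma adjusted p = 0.496; SD, n = 3 each). In these 3 pairs the groups did not overlap, against 22.3% of all pairs. The ratio of miR-1 was -7.15 ± 0.22 and -7.22 ± 0.05, with overlap.

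Which arm of miR-133 dominated depended on the z entry. Against miR-133-y alone the 5p arm was the more abundant, whereas most 3p reads were counted under miR-133-z, 98.3% to 98.9% of both. With y and z summed, added once the data had been seen, the log2 ratio of 5p to 3p was -3.42 ± 0.41 for WR and -3.90 ± 0.19 for YR libraries (n = 3 each, SD; a difference of -0.48, SE 0.25, with limma adjusted p = 0.498). The sign of the ratio turned and the groups overlapped. The summed ratio of miR-206 was -10.11 ± 0.12 and -10.63 ± 0.30, still without overlap. That of miR-1 was -10.09 ± 0.54 and -10.15 ± 0.06.

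**Figure D4:**
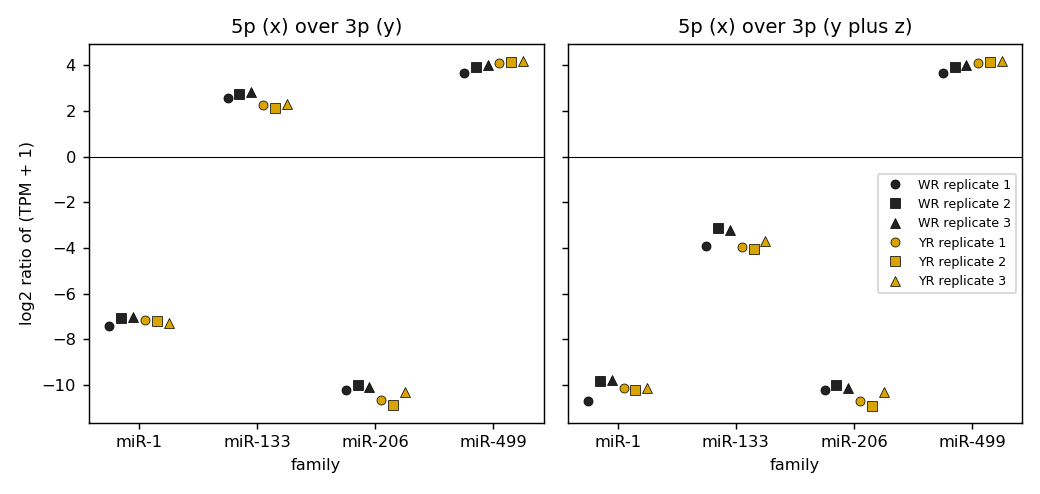
Log2 ratio of 5p to 3p arm, as (TPM + 1), per library for the 4 families, with y alone (left) and with y plus z (right) as the 3p arm. miR-133 lies above 0 on the left and below 0 on the right, and miR-499 lies between 3.64 and 4.18 on both.

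Other families with roles in muscle differentiation of mammals (miR-23, miR-24, miR-26, miR-27, miR-29, miR-181, miR-214, miR-221, miR-222, miR-378 and miR-486), which many tissues express, had 31 entries, 29 of them tested. By edgeR 1 was higher, against 2.16% of all entries, 0 were lower, against 3.12%, and 28 did not pass, with a median log2 fold change of 0.11. The one called higher was miR-26-x, which in mammals represses the histone methyltransferase Ezh2 during muscle differentiation. It had 57776 ± 3130 TPM in black and 65745 ± 5340 TPM in yellow skin, with overlap (SD, n = 3 each; log2 fold change 0.42, SE 0.08; edgeR adjusted p = 0.0409). It kept the call in 2 of 18 alternatives, both with TMM scaling of all 6 libraries, and lost it without any 1 of the 6 libraries and with library totals alone (log2 fold change 0.19; adjusted p = 0.278). The other most abundant entries were miR-181-x, at 77602 ± 3787 and 87322 ± 3076 TPM, and miR-27-y, at 45164 ± 8366 and 42859 ± 3987 TPM, with edgeR adjusted p = 0.199 and 0.369. In deposited TPM the groups of miR-181-x did not overlap, as for 28.3% of all tested entries, and those of miR-27-y did. The levels of these entries varied less over the libraries than those of the muscle entries. Highest over lowest was 1.21 for miR-181-x, 1.29 for miR-26-x and 1.43 for miR-27-y, against 1.86 for miR-206-y.

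Among 230 known entries outside the muscle families averaging at least 10 TPM and with a sequence of their own, the profile over the 6 libraries most like that of the summed muscle entries was that of miR-184-z. It belongs to the epidermal list, whose share of library totals was lower in YR. Of the counts of miR-184-y and miR-184-z together, miR-184-y held 99.55% to 99.68%. Likeness was the root mean square difference of centred log2 TMM-scaled CPM, 0.15 for miR-184-z, 0.15 for miR-2188-x, 0.17 for miR-458-y, 0.18 for miR-193-y and 0.19 for the red blood cell miR-451-x. The median over the 230 was 0.42, and the muscle profile itself departed from a flat line by 0.25. The summed muscle entries were highest in YR replicates 2 and 1 and lowest in YR replicate 3. The entries miR-184-z, miR-2188-x, miR-458-y and miR-193-y were also highest in YR replicates 1 and 2, but each was lowest in a WR library. In YR replicate 3 they lay at -0.04, -0.09, -0.07 and -0.05, against -0.33 for the summed muscle entries (centred log2). miR-451-x was lowest in YR replicate 3, at -0.22. An adjusted p under 0.05 stood beside 0 of the 11 muscle entries in the authors' deposited table, against 4.95% of its 1939 entries, and the lowest was 0.535, for miR-206-z.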

How the data were processed

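Small RNA from 6 dorsal skin libraries was sequenced on an Illumina HiSeq Xten, per the labels' protocols. The deposited table gives a whole-number count per mature miRNA and library, used as it stands, and the authors' TPM score, the count divided by a library constant, with a count of 0 set back to 0. Library totals ran from 8245698 to 10336991 counts, and 1 read was worth 0.101 to 0.127 TPM. The deposited TPM of a library summed to between 1039894 (YR replicate 3) and 1052569 (WR replicate 1). The log2 fold change, p-value and adjusted p-value of the authors' deposited table are quoted only where named. Aligner, database, genome build and the treatment of multiply matching reads are not stated in the labels or the file.

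The 834 entries averaging at least 1 TPM were tested with edgeR 4.0.16 (R 4.3.3), and arm ratios with limma 3.58.1, YR against WR, with no replicate term; DESeq2 1.42.0 was an alternative. All 11 muscle entries passed the filter. The steps were tested on simulated data. The members and lists were chosen with earlier results of these data known. Named were all muscle entries, the entries of the other muscle differentiation families past the threshold with the 3 most abundant of them, and the 5 most alike in profile. The mesenchymal, epidermal and other cell type lists served for their summed shares, and miR-199-y and miR-122-x were named after their values were seen. Replicates of a group differed by more than sampling noise (chi-square per degree of freedom 78.9 to 699). Fold changes are TMM-scaled, and TPM are not.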

Additional observations from a re-analysis of the deposited data

How the results depend on the processing

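In all 18 alternatives 0 muscle entries passed, and the log2 fold changes of miR-206-z (0.52 to 0.93), miR-499-x (0.20 to 0.65), miR-133-z, miR-133-y, miR-133-x and miR-206-x kept their sign wherever they were tested. The calls over all entries, 44, became 75 with DESeq2, 16 at 10 TPM or more and 0 with known entries alone. They became 21 with 1 entry per sequence, 2 with a replicate block and 1 to 118 without single libraries. The count of arm ratios past the threshold over all pairs, 2, became 1 with a pseudocount of 0.1 or 10 TPM, with at least 10 TPM, with the replicate block or with y plus z, 0 without the filter and 0 to 3 without single libraries. The labels do not say whether replicate numbers pair the libraries. Correlations of same-numbered deviations were 0.26, -0.10 and 0.27, against -0.38 to 0.14 for unlike numbers. So few values do not settle whether libraries were paired. With the block 0 muscle entries passed.

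Signs turned in entries with values near 0. With library totals alone, limma on log2(TPM + 1) and limma on log2(TPM + 0.1), the log2 fold change was -0.0693, -0.0572 and -0.0573 for miR-1-y, -0.0227, -0.0703 and -0.0704 for miR-1-z, -0.000775, -0.0415 and -0.0415 for miR-206-y, -0.0631, -0.0861 and -0.0885 for miR-499-y, and -0.0731, -0.0643 and -0.0643 for miR-27-y. With at least 10 TPM it was -0.0741 for miR-1-y, -0.0218 for miR-1-z, -0.0455 for miR-499-y and -0.0461 for miR-27-y, and with 1 entry per sequence -0.00323 for miR-1-y. miR-1-x had 0.0607 with the replicate block and -0.564 to 0.159 without single libraries, miR-1-y -0.288 to 0.249, miR-1-z -0.0776 to 0.351, miR-499-y -0.0222 to 0.366 and miR-27-y -0.0226 to 0.216. The adjusted p of miR-26-x ran from 0.0381 to 0.344. The arm ratio difference of miR-1 ran from -0.191 to 0.0103 without single libraries. The cause was not tested. miR-1-x, with 17 to 57 counts a library, had the largest log2 SE of the 11, 0.52, which was 0.334 without WR replicate 1.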

Other observations

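WR replicate 1 stood apart in how reads fell on near-identical entries. Of the 3p reads of miR-1 it gave 10.02% to miR-1-y, the form that is 1 base longer, against 12.4% to 14.8% in the other 5 libraries. In 16 of 24 families with a y and a z entry of the same arm, this library had the highest or the lowest share of the 6, against 4 to 9 families for each other library. It also had the lowest miR-1-x, with 17 counts against 25 to 57 elsewhere.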
